A study of Drosophila melanogaster with 3 samples.

Results

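A set of 10 genes that build the muscle sarcomere was examined in chromatin immunoprecipitation followed by sequencing of CG2120, a predicted zinc finger protein. The genes were chosen by name, as components of the contractile apparatus, and are 10 of the 13968 protein coding genes in the annotation. Chromatin came from whole embryos of Drosophila melanogaster at 18 to 24 h, when the body wall muscles have differentiated, of a stable transgenic line with GFP at the C-terminus of CG2120. Sheared chromatin of 200 to 800 bp was precipitated through the GFP. All samples form 1 group of 3 biological replicates (n = 3), so there is no untreated or wild-type group, and each value is set beside the same value over all protein coding genes. No test between groups was possible. Sequencing depth is unknown, because peak lists hold no read counts. In whole embryos, a site occupied in few nuclei and a site occupied weakly in many cannot be told apart.

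The sarcomere is the repeating contractile unit of striated muscle. Thick filaments of myosin slide along thin filaments of actin, tropomyosin and the troponin complex keep the thin filament switched off until calcium is released, and giant elastic proteins tie the filaments to the Z-disc. In insects many of these proteins come from single genes that make several isoforms by alternative splicing or alternative promoters. In build dm6, the giant protein genes are sls (FBgn0086906), a titin-family gene at 3L:2039681 to 2115611, and bt, which encodes projectin, at 4:724400 to 776474. The thick filament genes are Mhc, the muscle myosin heavy chain gene, at 2L:16766566 to 16788766, and Mlc2, the myosin regulatory light chain gene, at 3R:30171438 to 30174551. The thin filament genes are Act57B, a muscle actin gene, at 2R:20944021 to 20946431, the tropomyosin genes Tm1 (FBgn0003721) at 3R:15278220 to 15308779 and Tm2 at 3R:15310193 to 15315197, the troponin T gene up at X:13593474 to 13602578, and the troponin I gene wupA at X:18105568 to 18116922. Mlp84B, at 3R:7112850 to 7117732, encodes a muscle LIM protein of the Z-disc.

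Only sls and Tm1 held CG2120-GFP peaks of the optimal list. This list, the authors' 8340 peaks that passed a reproducibility threshold, placed 7 summits in the 10 genes and the 2 kb around them, 1 at sls and 6 at Tm1. All 8340 hold the same rank in the pooled list of 30000 peaks. The optimal list therefore ends at a signal rank, and a weaker summit can recur in the replicates and still lie outside it. The genes bt, Mhc, Mlc2, Act57B, Tm2, up, wupA and Mlp84B held none. The count of 2 in 10 genes (20%) stands beside 52.2% of all protein coding genes with a summit in the same kind of window. The 10 genes were chosen by name and are not a random sample, so the count carries no error estimate. Within 500 bp of an annotated transcription start site (TSS) the count was again 2 of 10, beside 34.0% of all protein coding genes. Long genes offer more room, and 2 of the 4 genes of 20 kb or more held a summit, beside 76.7% of all genes of that length. Of the 6 shorter genes, 0 held one, beside 50.3% of all genes under 20 kb, and 6 genes give only a rough share. The 2 genes were the same in each replicate when its own 8340 strongest peaks were used (2 of 10 in 3 of 3 replicates), where 52.0% ± 0.265 (SD, n = 3) of all genes held a summit.

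The window sets this count. In the gene bodies alone, only Tm1 held summits (1 of 10 genes, beside 18.3% of all genes), because the sls summit lies upstream of the gene. With 5 kb around each gene the count was 7 of 10, beside 66.0% of all genes, with Tm2, Mlp84B, Act57B, wupA and Mhc added. Summits were also sparse per length, at 0.273 per 10 kb of the windows of the sarcomere genes (0.234 ± 0.0675 in the replicates' strongest peaks, SD, n = 3), against 0.926 per 10 kb over the windows of all protein coding genes.

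The sequence under the summits is shown because they are the only summits of the optimal list in the 10 genes and the 2 kb around them. Each line gives 101 bases of the release 6 assembly on the plus strand, with the summit at the middle base and the rank of the peak in the optimal list, where 1 is the strongest. Capitals mark TATAAA and GAGAG on either strand and, in the peak of rank 3292, one of the 3 8-mers with the largest excess at all optimal summits over windows 500 bp away. The Tm1 summit of rank 7552 is described without its sequence.
sls upstream, chr3L:2115829-2115929, rank 473: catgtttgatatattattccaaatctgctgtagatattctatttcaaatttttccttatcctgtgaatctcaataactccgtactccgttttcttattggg
Tm1 intron, chr3R:15280966-15281066, rank 5695: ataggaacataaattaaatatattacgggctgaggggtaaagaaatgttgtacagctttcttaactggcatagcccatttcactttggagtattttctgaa
Tm1 intron, chr3R:15281171-15281271, rank 7591: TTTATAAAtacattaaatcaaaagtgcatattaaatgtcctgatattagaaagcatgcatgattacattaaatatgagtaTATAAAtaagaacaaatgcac
Tm1 intron, chr3R:15286149-15286249, rank 7572: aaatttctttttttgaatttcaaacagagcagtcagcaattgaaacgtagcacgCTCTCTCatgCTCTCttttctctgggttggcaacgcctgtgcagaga
Tm1 intron, chr3R:15292475-15292575, rank 3292: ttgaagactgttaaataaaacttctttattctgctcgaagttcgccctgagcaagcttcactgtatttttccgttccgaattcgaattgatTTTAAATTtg
Tm1 intron, chr3R:15293772-15293872, rank 4643: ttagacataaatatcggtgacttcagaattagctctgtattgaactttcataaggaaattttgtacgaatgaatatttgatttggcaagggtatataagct

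Among the giant protein genes, sls and bt stood at opposite ends. The gene sls had a single strong site, just upstream of its only annotated TSS, from which all 13 annotated transcripts start. The peak spans 3L:2115707 to 2116061, in intergenic sequence, and its summit lay 268 bp upstream of the TSS. Its signal value, a quantity the authors' caller gave to each peak, was 1001, against a median of 236 in the optimal list and a lowest value of 123. It ranked 473 of 8340, at percentile 94.3 of the list. In the replicate lists, which hold 30000, 30000 and 27353 peaks with background included, the same summit ranked 411, 545 and 444 in replicates 1, 2 and 3 (467 ± 69.8, SD, n = 3). The replicate summits lay 3, 7 and 14 bp from it, so the site was in the same place and at nearly the same rank every time. No other optimal summit lay in the 75931 bp of sls.

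The projectin gene bt, 52075 bp long with 3 annotated TSSs, had no optimal summit, and the nearest one lay 26746 bp upstream of it, 35 bp from the TSS of ey, an eye development gene. Even in the pooled list of 30000 peaks and background its strongest summit ranked 22658, 16790 bp from a bt TSS. Its strongest summit in replicates 1, 2 and 3 ranked 24624, 21216 and 16295. These lay at different places, 18771 and 50979 bp downstream of a bt TSS in replicates 1 and 2 and 82 bp upstream of one in replicate 3. The gene lies on the small arm 4, which held 38 optimal summits, 28.2 per Mb against 62.6 per Mb on the 5 large arms, and where 42.5% of 80 protein coding genes had a summit in the gene and 2 kb around it.

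**Figure D1:**
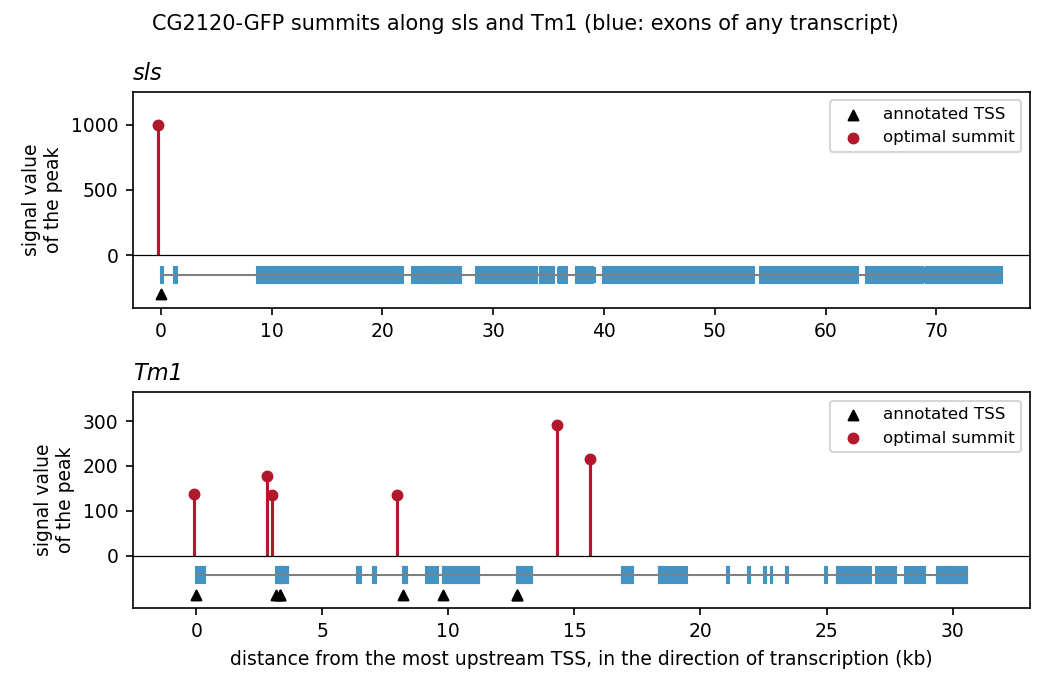
Optimal CG2120-GFP summits along sls and Tm1, with distance from the most upstream TSS in kb on the x axis and the signal value of each peak on the y axis, exons of any transcript in blue and annotated TSSs as triangles. The single sls summit, at a signal of 1001, stands just before the gene, and the 6 Tm1 summits, between 136 and 291, are spread over the 5' part of the gene.

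Tm1 was the sarcomere gene with the most sites, and all were of moderate or low rank. Tm1 encodes tropomyosins of muscle and, from other promoters, of non-muscle cells, and is annotated with 8 TSSs and 18 transcripts over 30560 bp. Its 6 summits are as many as or more than in all but 155 of the 13968 protein coding genes, and 16.2% of the 1020 genes of 20 kb or more held at least as many. The strongest, at 3R:15292406 to 15292587, had a signal of 291 and lay in an intron 1579 bp downstream of the nearest Tm1 TSS. It ranked 3292 in the optimal list and 3531, 3273 and 3979 in replicates 1, 2 and 3 (3594 ± 357, SD, n = 3). A second intronic summit followed 1297 bp further on, with a signal of 216, rank 4643 in the optimal list and ranks 4330, 6106 and 3937 in the replicates (4791 ± 1156, SD, n = 3). These and the sls summit were the 3 of 7 found among the 8340 strongest peaks of all 3 replicates, beside 70.4% of all optimal summits, where summits within 100 bp counted as the same. The count depends on that rule. It was 1 of 7 within 50 bp (56.1% of all optimal summits), 5 of 7 by any overlap of peaks (79.0%) and 6 of 7 in the whole replicate lists (91.6%).

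The other 4 Tm1 summits lay at Tm1 start sites, upstream of them, and were less repeatable. Together with the sls summit, 5 of the 7 lay within 500 bp of a TSS of their gene, and 5 of those 5 were upstream of the nearest one. No share over all optimal summits stands beside these counts, so they are not read as particular to these genes. Summits 355 and 150 bp upstream of the second TSS had signals of 178 and 136. Their peaks overlap by 245 bp and the summits are 205 bp apart, so they are not separate measurements of that promoter. The first of them ranked 5064 in replicate 1 and 7536 in replicate 3 and had no counterpart within 100 bp in replicate 2, where the nearest summit was 143 bp away. That replicate 2 summit, of rank 6156, is also the one matched to the second, which ranked 9079 in replicate 1 and 13085 in replicate 3. A summit 220 bp upstream of the fifth TSS had a signal of 136 and ranked 5729, 9371 and 18099 in replicates 1, 2 and 3, so only replicate 1 had it among its 8340 strongest.

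The last of the 4 could not be assigned to 1 gene. It lay 94 bp upstream of the first Tm1 TSS and 17 bp upstream of the TSS of MRG15, a chromatin protein gene that starts 111 bp away on the other strand, and inside the annotated 3' untranslated region of the overlapping gene l(3)neo43. Its signal was 136, and it ranked 6493, 9856 and 6159 in replicates 1, 2 and 3. In all, 5 of the 8 Tm1 start sites had an optimal summit within 500 bp, and with the sls start 6 of the 35 start sites of the 10 genes did, beside 31.7% of the 19630 start sites of protein coding genes. Both genes had a promoter summit among the 8340 strongest peaks of each replicate, sls 1 in every replicate and Tm1 3, 1 and 2 in replicates 1, 2 and 3. None of the 4 optimal Tm1 promoter summits was among these peaks in all 3 replicates. Among peaks found in all 3 replicates, only sls kept a promoter summit (1 of 10 genes), beside 27.3% of all protein coding genes. The same held in the 4170 strongest optimal peaks (21.8% of all genes), without replicate 1 (28.9%) and without replicate 3 (29.6%). In these settings the 2 genes with any summit remained sls and Tm1, beside 44.4%, 36.6%, 46.4% and 47.1% of all genes. With a promoter window of 200 bp the call fell to Tm1 alone (26.2% of all genes), since the sls summit lies 268 bp from its TSS.

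**Figure D2:**
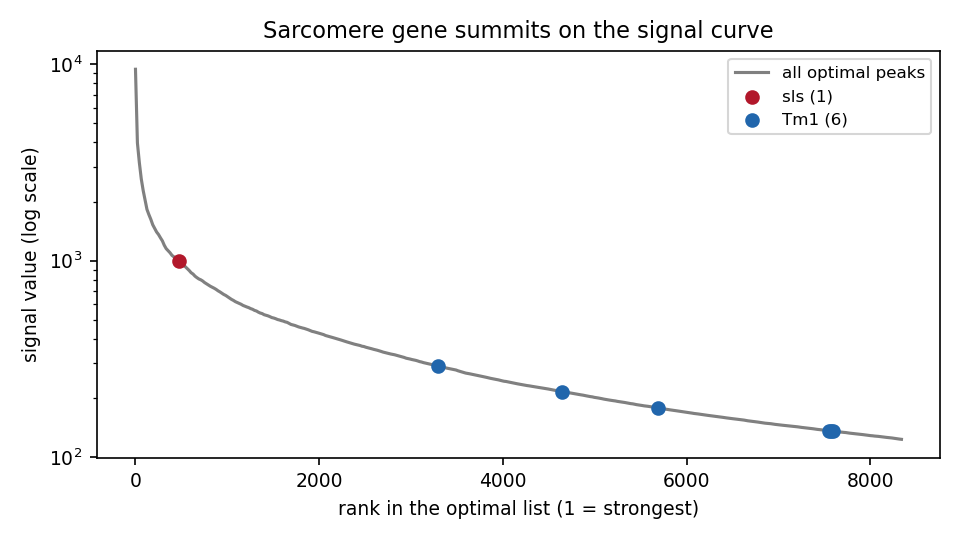
Signal value of the optimal peaks on a log scale against their rank, with the sls summit in red and the 6 Tm1 summits in blue. The sls summit stands at rank 473, in the steep part of the curve, and the Tm1 summits between ranks 3292 and 7591, of which 3 lie close together at ranks 7552 to 7591.

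The thick filament genes had no optimal summit at any start. Mhc is annotated with 5 TSSs, and the nearest optimal summit lay 4451 bp upstream of the first, nearer to ppk17. In the pooled list its strongest summit ranked 14027, 87 bp downstream of a TSS, with a signal of 70.0, under the lowest optimal value of 123. The strongest Mhc summits of replicates 1, 2 and 3 ranked 13518, 15537 and 9200. They lay 8775, 73 and 76 bp downstream of a TSS, so replicates 2 and 3 placed a weak summit near the pooled position. For Mlc2 the strongest pooled summit ranked 12722, 786 bp downstream of the TSS. The replicates' strongest ranked 10992, 13332 and 9032 and lay 853, 839 and 572 bp downstream of it. The nearest optimal summit to Mlc2 lay 15468 bp away.

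Of the thin filament genes other than Tm1, none had an optimal summit. wupA came nearest to the end of the optimal list, with a pooled summit of rank 9955 and signal 103, 990 bp downstream of a TSS, and strongest ranks of 11081, 9921 and 8556 in replicates 1, 2 and 3. Tm2, the neighbour of Tm1 on the same strand, had a strongest pooled rank of 12432, 363 bp upstream of a TSS, and ranks of 10150, 15501 and 12118 in the replicates. These replicate summits lay 338, 514 and 377 bp upstream of a Tm2 TSS. The troponin T gene up, with 6 TSSs, had a strongest pooled rank of 14233 and ranks of 9995, 14787 and 14329. Act57B had a strongest pooled rank of 16589 and ranks of 16449, 15523 and 10949. The Z-disc gene Mlp84B had a strongest pooled rank of 18458 and ranks of 19817, 17076 and 8586. All 24 values of these 8 genes in the 3 replicates therefore fell outside the 8340 strongest peaks, and those of sls and Tm1 inside in every replicate. Replicate 3, whose list is the shortest, gave the strongest rank of the 3 for 6 of the 8 genes, namely bt, Mhc, Mlc2, Act57B, wupA and Mlp84B.

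**Figure D3:**
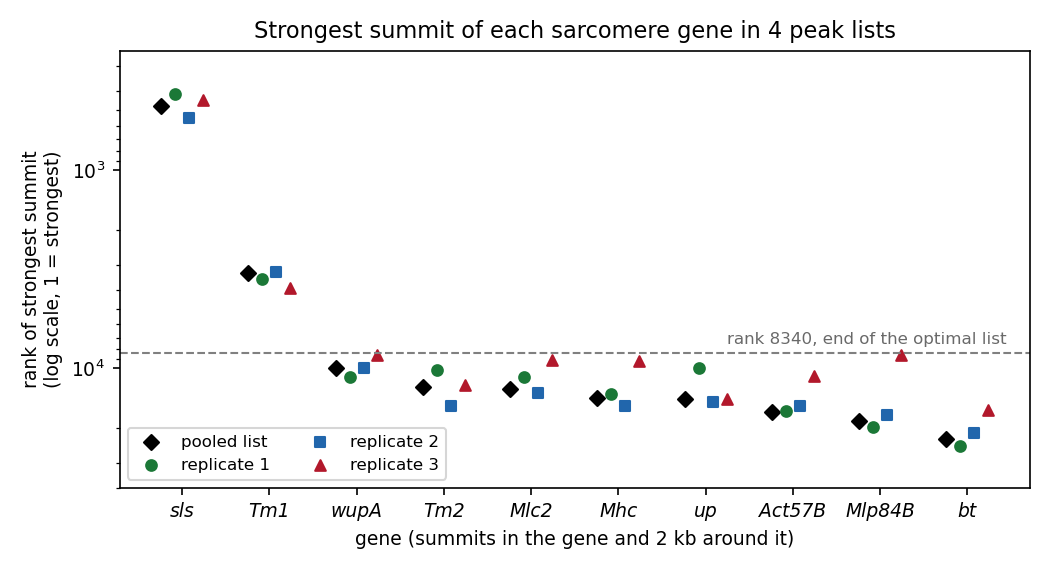
Rank of the strongest summit of each gene, in the gene and 2 kb around it, in the pooled list (diamonds) and in replicates 1 to 3, on a log scale with the strongest at the top. Both sls and Tm1 lie above the dashed line at rank 8340 in all 4 lists, and the other 8 genes lie below it in all 4. For the pooled list this follows from the optimal list, whose peaks hold the same ranks there.

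For bt, Tm2, up and wupA, 4 of these 8 genes, the nearest optimal summit stood within 500 bp of the start of another gene. No share over all genes stands beside this count, so it is not read as particular to these genes. The nearest optimal summit to Tm2 lay 4996 bp downstream of it, 124 bp upstream of the TSS of CG6276. The one nearest to wupA lay 3620 bp downstream, 22 bp upstream of the TSS of Taf8, which encodes a subunit of the basal transcription factor TFIID. The one nearest to up lay 14276 bp upstream, 135 bp upstream of the TSS of Tango2, and ranked 764. The one nearest to Mlp84B lay 3832 bp downstream, 594 bp upstream of a TSS of Alh, which encodes a chromatin-associated protein. Only at Act57B was the nearest summit, 4011 bp upstream with a signal of 184, closest to the start of the sarcomere gene itself.

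Pooled peaks outside the optimal list, weaker and with background included, numbered 72 in the windows of the 10 genes, 2.81 per 10 kb against 1.85 over the windows of all protein coding genes, a difference that was not tested. The whole pooled list put 79 summits there, with the windows of Tm1 and Tm2 overlapping. This was 3.08 per 10 kb against 2.78 over the windows of all protein coding genes, and each of the 10 genes held at least 1, beside 73.6% of all genes. Of the 79, 8.86% were in the optimal list, against 33.3% of the pooled summits counted over all gene windows. The median rank of the 79 was 21427. Mlc2 had the highest value of the 10, with 9 pooled summits in 7114 bp (12.7 per 10 kb), a density that 0.251% of all genes reached. Tm1 held 25 (7.23 per 10 kb) and Mhc 12 (4.58), while sls held 3 (0.375) and bt 5 (0.892). Thus 8 of the 10 genes were above the median of 2.53 over all genes, and the 2 giant protein genes below it.

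The A and T share at each of the 7 summits was above the median of windows 500 bp away, the lowest only narrowly. Of the 9 motifs searched, 4 occurred at any of the 7 summits. A and T made up 57.4% to 77.2% of the 101 bases around them, beside a median of 66.3% at all optimal summits (quartiles 59.4 and 71.3) and 56.4% in windows 500 bp away. The sls window had 68.3%, and the Tm1 windows of ranks 7572 and 7591 had the lowest and the highest value. TATCGATA, the element bound by the promoter factor DREF, was in 0 of 7 windows, 2.95% of all optimal windows and 0.24% of windows 500 bp away. TATAAA was in 1 of 7, the Tm1 window of rank 7591, beside 19.9% of all optimal windows and 10.3% of windows 500 bp away. GAGAG, the element of the GAGA factor, was in 1 of 7, that of rank 7572, beside 10% and 13.8%, and CANNTG, the E-box of basic helix-loop-helix factors, in 2 of 7, beside 35.4% and 41.4%. The consensus of MEF2, a factor of muscle differentiation, and the GATA sequence AGATAA were in 0 of 7, beside 6.29% and 7.13% of all optimal windows. The 8-mers with the largest excess at all optimal summits were TTTAAAAA, AATTTAAA and AAAAATAT, in 5.72%, 4.93% and 5.90% of windows, and of these only AATTTAAA was in any of the 7, at rank 3292. Motifs were counted on both strands, and no match was tested for binding.

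The start sites of the 10 genes were also searched, from 250 bases before to 50 after each of the 35 TSSs. TATCGATA was in 0 of 35, beside 7.99% of the 19630 start sites. The MEF2 consensus was in 7 of 35, in the genes bt, Mhc, Act57B, Tm1, up and Mlp84B, beside 13.3% of all start sites. GAGAG was in 16 of 35, beside 33.2%, and of these 7 were among the 9 starts of sls and Tm1 and 9 among the 26 of the other genes. TATAAA was in 11 of 35, beside 42.2%, with 1 of 9 at sls and Tm1 and 10 of 26 at the others. CANNTG was in 24 of 35, beside 77.8%, and AGATAA in 4 of 35, beside 18.0%. Start sites of 1 gene overlap in these windows and are not independent.

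Of 23 other genes of the contractile apparatus, 12 (52.2%) had a summit in the gene and 2 kb around it. A summit within 500 bp of a TSS was found at 6 (26.1%). Among all protein coding genes the shares were 52.2% and 34.0%, which also stand beside the counts of each list below. The lists were chosen by function and their differences were not tested. Of 7 other genes of the thick filament and M-line, 5 had a summit in the gene and 2 kb around it and 2 had one at a TSS, the myosin chaperone gene unc-45 (signal 279) and Strn-Mlck (132), with no promoter summit at the essential light chain gene Mlc1, the flightin gene fln or Mf. Of 9 other muscle actin and thin filament genes, 3 had any summit and 1 a promoter summit, tmod (253), which encodes the pointed-end cap tropomodulin. The muscle actin genes Act79B, Act87E and Act88F had none at a TSS in the optimal list, though Act87E had one in 1 replicate. Of 7 Z-disc genes, 4 had any summit and 3 a promoter summit, CAP (989), Zasp52 (191) and the alpha-actinin gene Actn (163), and cher, Mlp60A and Zasp66 had none there.

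Genes of muscle attachment and of the non-muscle cytoskeleton had the highest promoter counts of the lists examined. Of 8 genes that anchor muscle to the matrix or the nucleus, 7 had any summit and 6 a promoter summit, led by Msp300, a giant nesprin-family protein of the nuclear envelope (signal 3244, rank 38 in the optimal list), and the integrin genes mys (624) and if (350). Ilk and parvin had no promoter summit. Of 8 non-muscle actin and myosin genes, 6 had any summit and 5 a promoter summit, led by the cytoplasmic actin gene Act5C (625), the non-muscle regulatory light chain gene sqh (539) and the cofilin gene tsr (250). Act42A, Mlc-c and zip had no promoter summit in the optimal list, though Act42A and zip each had one in 1 replicate. The promoter share of the 8 genes was 70.8% ± 14.4 in the replicates (SD, n = 3), that of the attachment genes 66.7% ± 7.22, and that of the 10 sarcomere genes 20% ± 0. That of all protein coding genes was 33.6% ± 0.651. The lists were not matched for gene length. Of the attachment genes, Msp300, mew, if and rhea are longer than 20 kb, a length at which 76.7% of all genes held a summit in the gene and 2 kb around it. No promoter share at that length stands beside the promoter counts. Of 6 genes of muscle calcium handling, 3 had any summit, Itpr among them, and 2 a promoter summit, Cam (162) and SERCA (149). Ca-alpha1D, Itpr and RyR had no promoter summit in the optimal list, though RyR had one in 1 replicate.

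**Figure D4:**
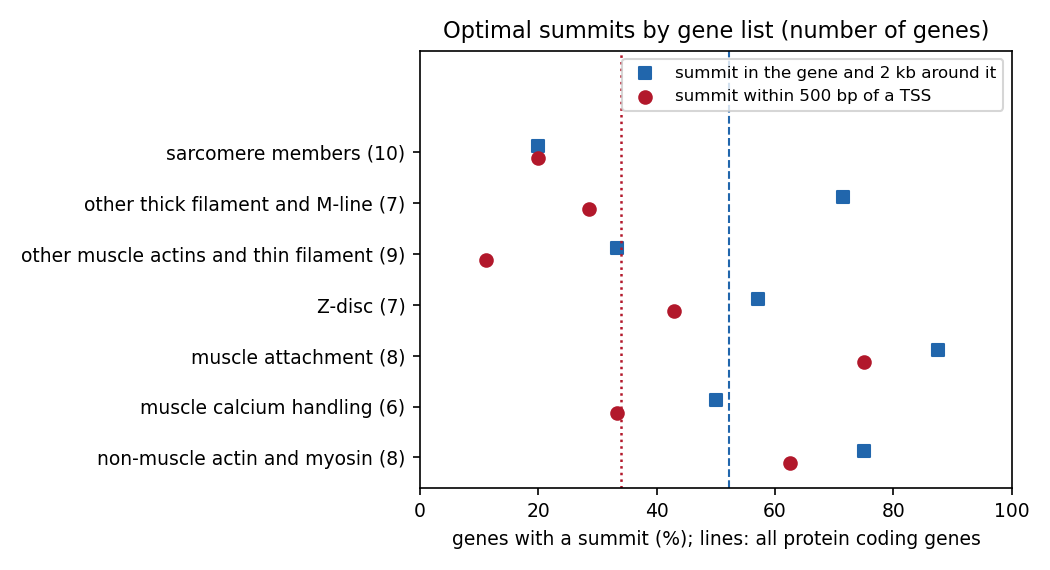
Percent of the genes of each list with an optimal summit in the gene and 2 kb around it (squares) and within 500 bp of a TSS (circles), with lines at the values of all protein coding genes, 52.2% and 34.0%. The 10 sarcomere genes are at 20% for both, left of both lines, and the muscle attachment genes are at 87.5% and 75%.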

How the data were processed

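Per the labels, the authors sonicated chromatin and precipitated it with an antibody to GFP. Per the text deposited with each sample, replicate and pooled lists derive from dm6 alignments with 1 control, and the optimal list from those lists by a threshold on the irreproducible discovery rate. For its level, the aligner and the peak caller, nothing is stated in the sources used here. Per peak, the deposited signal value has no stated scale, so ranks were used across lists. All 8340 optimal peaks are in the pooled list at the same position and rank. The dm3 lists were not used here.

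Genes and TSSs came from Ensembl release 115 (13968 protein coding genes), and sequence from the RefSeq release 6 assembly, the build of the files. Summits within 100 bp counted as the same. Python 3.11.15, pandas 2.3.3 and scipy 1.17.1 were used, with assignment checked on simulated summits. Of 55 listed symbols 54 matched directly and 1, Unc-89 (now Obsc), through a synonym. Named genes are the 10, each list's up to 3 strongest promoter summits and up to 3 genes without one in alphabetical order. Neighbours are named for their place, chosen after their values were seen. Members and lists were chosen with earlier results of these data known. The split at 20 kb, the length of the printed sequences (31 bases were planned), the pooled densities, the matching rules applied to all optimal summits and the nearest sites were added after seeing the data.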

Additional observations from a re-analysis of the deposited data

How the results depend on the processing

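No paired analysis was possible because only 1 group was measured. The 2 genes with any summit were 1 in the gene bodies alone and 7 with 5 kb around the genes, beside 18.3% and 66.0% of all genes. They stayed sls and Tm1 under the other 5 settings run, beside 36.6% to 47.1% of all genes. The 2 genes with a promoter summit fell to 1 with a 200 bp window, beside 26.2% of all genes. They also fell to 1 in the upper part of the optimal list (4170 peaks, 21.8% of all genes) and in peaks of all 3 replicates (27.3%). With a replicate left out they were 1 to 2, beside 28.6% to 29.6% of all genes. The 7 summits were 15 with 5 kb, 2 in the upper part of the list, 3 in peaks of all 3 replicates, and 3 to 5 with a replicate left out. Their density, 0.273 per 10 kb, was 0.474 with 5 kb, 0.0779 in the upper part, 0.117 in peaks of all 3 replicates and 0.117 to 0.195 with a replicate left out (all genes, in the same order, 0.944, 0.497, 0.668 and 0.714 to 0.747). Their median rank percentile, 31.7, was 77.4 in the upper part, 60.5 in peaks of all 3 replicates and 44.3 to 60.5 with a replicate left out. All of these keep a subset of the same peaks. The 3 summits among the strongest peaks of every replicate were 1 when summits had to lie within 50 bp, 5 by any overlap of peaks and 6 in the whole replicate lists, background included. Depth per sample is unknown.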

Other observations

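Of the 13 genes that overlap the sarcomere gene windows, 4 (30.8%) had an optimal promoter summit, beside 34.0% of all protein coding genes. Alh, which overlaps the surroundings of Mlp84B, had 6 optimal summits in the gene and 2 kb around it and its strongest promoter summit had a signal of 985 (rank 481). CG4338, which borders Tm1, had a promoter summit with a signal of 1420 (rank 226), Tpst, beside up, one with a signal of 297 (rank 3211), and MRG15, beside Tm1, the shared summit with a signal of 136 (rank 7552). zormin, which encodes another large sarcomere protein, adjoins sls on the same strand and held 4 optimal summits in the gene and 2 kb around it, none within 500 bp of a TSS. The 20 kb on either side of the windows of sls and bt held 0 optimal summits, and those of Mlp84B held 8. Those of Mhc and Act57B held 1 each, up 2, Mlc2 3, wupA 5, and Tm1 and Tm2 7 each. No value over all genes stands beside these counts.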
